A study of Mus musculus with 6 samples.

Results

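The genes described here serve 3 linked tasks of acid and base handling in the cochlear lateral wall, namely the vacuolar proton pump, the carbonic anhydrases and the Slc4 family of bicarbonate transporters. They were chosen by symbol: every entry of the deposited gene table that begins with Atp6v or with Slc4a and a digit, every carbonic anhydrase (Car and a number), and Atp6ap1 and Atp6ap2. Atp6v0d2 was left out of the set. The rule is worded in symbols alone, but the set was chosen with earlier results of these data known. The rule gave 49 of 17091 genes, which are 23 proton pump genes, 16 carbonic anhydrases and 10 Slc4 genes. All 49 passed the filter of a mean of at least 1 normalised read count. Slc4a9 and Atp6v1e2, which belong to these families, were not analysed here.

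RNA was sequenced from microdissected lateral wall, the tissue that holds the stria vascularis and the spiral ligament, of CBA/CaJ mice, an inbred strain. Young mice were 2 months old (n = 3) and old mice 2.5 years (n = 3), with no other treatment or allele named, and the cochleas of each mouse were pooled into 1 library. The samples are whole tissue, so fewer cells of a type and less RNA per cell cannot be told apart.

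The vacuolar proton pump (V-ATPase) spends ATP to move protons across membranes. Its V1 sector binds ATP in the cytosol and its V0 sector forms the path through the membrane. Every cell uses it to acidify lysosomes and endosomes, and some epithelia carry a version with tissue-restricted subunits at the cell surface that secretes acid. Carbonic anhydrases interconvert carbon dioxide and bicarbonate, and Slc4 proteins carry bicarbonate or related ions across membranes. In the cochlea the fibrocytes of the spiral ligament are known for strong carbonic anhydrase staining, and inherited loss of the pump subunits encoded by ATP6V1B1 and ATP6V0A4 causes renal acidosis with hearing loss.

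The libraries held 37055355 to 39103398 reads. All 14 markers listed for the lateral wall were detected in the table, and 2 of them, Atp1b2 and Otos, fell with age. The labels conflict on the tissue, since every source entry speaks of cells of the auditory nerve. The summed level of 12 neuron markers was 637 to 999 normalised read counts in young libraries, 995 in old replicate 1, 5712 in old replicate 2 and 6737 in old replicate 3. The 12 did not move together. In limma 2 rose (Stmn2 and Scn9a) and 1 fell (Syt1, 202 ± 25.1 in young and 90.2 ± 14.5 in old mice). Rbfox3 differed little (log2 fold change 0.17 ± 0.36). Old replicate 3 also had little Xist (45.2 normalised read counts against 24382 to 29162 in the other libraries). Old replicates 1 and 3 carried the most red cell RNA: the summed level of 14 erythroid markers was 11667 to 13078 in the young libraries and 30745, 14656 and 52907 in old replicates 1, 2 and 3. Of these sums Tfrc alone held 8136 to 8949 in young libraries and 9340, 7512 and 10219 in old replicates 1 to 3. In old replicate 2, 6 of the 14 were above every young library, among them Hba-a1, Hba-a2, Hbb-bs and Hbb-bt.

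Of the 49 genes, 1 fell and 0 rose with age at a limma adjusted p under 0.05 (Benjamini-Hochberg over 17091 genes), a share of 2.04% against 5.25% of all genes (2.55% lower and 2.71% higher). The gene that fell was Atp6v0a4. The pump gene Atp6v0d2, left out of the set, is not in these counts and rose (values below). At an unadjusted p under 0.05 there were 5 higher and 10 lower genes of the 49 (30.6%), against 21.3% of all genes (10.8% higher and 10.6% lower). On the same reads edgeR called 0 of the 49, against 5.07% of all genes (2.73% higher and 2.33% lower). At an unadjusted edgeR p under 0.05 there were 16 of the 49, against 21.7% of all genes. DESeq2 called 6, of which Car6, Car8 and Slc4a1 were higher and Atp6v0a4, Slc4a10 and Slc4a4 lower in old mice, against 10.6% of all genes (5.71% higher and 4.93% lower). The authors' deposited table holds an adjusted p under 0.05 for the same 6, also with 10.6% of all genes. The values of the young and old libraries did not overlap in 16 of the 49 (32.7%, 7 higher and 9 lower), against 26.1% of all genes (13.2% higher and 12.8% lower). The median log2 fold change, old minus young, was 0.03 over the 49 and 0.00 over all genes. The limma count was 4 without old replicate 2, 1 without old replicate 1 (Atp6v1g2 in place of Atp6v0a4) and 0 without any other single library. With no variance trend in limma it was 1, Slc4a5 in place of Atp6v0a4.

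**Figure D1:**
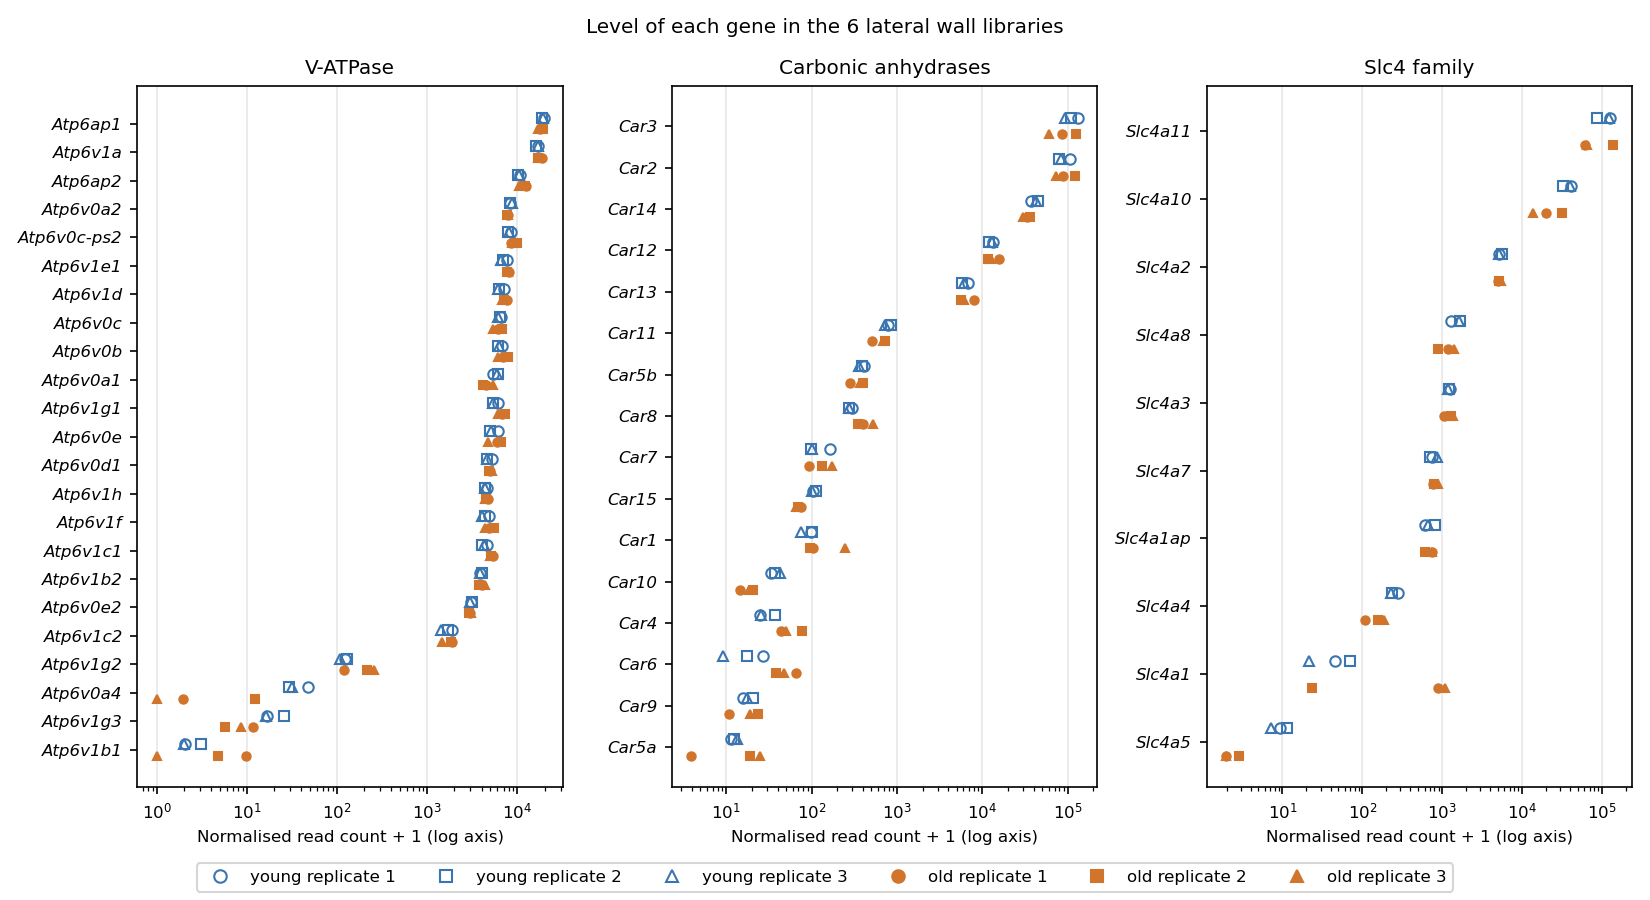
Level of each of the 49 genes in each library, as normalised read count + 1 on a log axis, with young libraries as open blue and old libraries as filled orange symbols. Columns are for comparison within a gene, since the values are not divided by length; with the pseudogene Atp6v0c-ps2 set aside, 18 pump genes have a young mean above 1000 and 4 lie far below it, and Car3, Car2 and Slc4a11 have the highest levels.

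Sequences are shown first for a pair of genes whose reads can hardly be separated. Atp6v0c encodes the proteolipid subunit c, which forms the rotating ring of V0, and Atp6v0c-ps2 is a processed pseudogene of it. Over the 465 bases that align, the coding sequence of Atp6v0c and the pseudogene (GENCODE M21, GRCm38) are identical at 464, with a longest identical run of 354 bases. The first 120 coding bases follow 5′ to 3′, in lower case with the only base that differs in capitals.
Atp6v0c: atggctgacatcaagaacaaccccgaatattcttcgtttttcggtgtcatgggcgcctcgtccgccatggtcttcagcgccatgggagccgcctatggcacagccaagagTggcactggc
Atp6v0c-ps2: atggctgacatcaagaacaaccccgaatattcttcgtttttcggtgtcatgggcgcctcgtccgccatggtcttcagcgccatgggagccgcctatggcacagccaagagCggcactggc

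The deposited table nevertheless gives 8044 ± 330 normalised read counts to the pseudogene and 6381 ± 274 to Atp6v0c in young mice (SD, n = 3). Old mice had 8983 ± 694 for the pseudogene and 6074 ± 742 for Atp6v0c. No source used here states how reads were assigned to either copy, so both values are uncertain. The sum of both was 14999, 14227 and 14049 in young replicates 1 to 3 and 14632, 16580 and 13959 in old replicates 1 to 3, and these ranges overlap.

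Promoter letters were then searched for the E-box CACGTG, the core of the site that the lysosome regulators TFEB and MITF bind. Of 17 V-ATPase genes with a promoter in the RefSeq table (GRCm38.p6, 250 bases before to 50 after the start), 4 held it, namely Atp6v0b, Atp6v0d1, Atp6v0e and Atp6v1a. Of 19 carbonic anhydrase and Slc4 genes 1 did, Car6, and so did 8.09% of 27025 genes. The word is its own reverse complement, so both strands were covered. The longer form TCACGTGA, which contains CACGTG, was in 3 of the 17 (Atp6v0d1, Atp6v0e and Atp6v1a), in 0 of the 19 and in 1.12% of all genes. The 250 bases before the start are printed for 2 subunits with a match inside them and for Atp6v0a4, the gene that fell, which has none. Capitals mark CACGTG.
Atp6v1a, chr16:44139260-44139509, minus strand: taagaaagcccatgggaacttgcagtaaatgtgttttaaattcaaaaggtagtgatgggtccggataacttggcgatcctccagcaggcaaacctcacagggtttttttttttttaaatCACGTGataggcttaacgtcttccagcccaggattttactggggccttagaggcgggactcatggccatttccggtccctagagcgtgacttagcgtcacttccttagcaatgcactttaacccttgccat
Atp6v0b, chr4:117887330-117887579, minus strand: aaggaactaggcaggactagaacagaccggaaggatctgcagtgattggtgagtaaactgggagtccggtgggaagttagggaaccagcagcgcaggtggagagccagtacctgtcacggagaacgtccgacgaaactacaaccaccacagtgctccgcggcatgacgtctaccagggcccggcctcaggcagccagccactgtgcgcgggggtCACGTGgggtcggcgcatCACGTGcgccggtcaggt
Atp6v0a4, chr6:38124587-38124836, minus strand: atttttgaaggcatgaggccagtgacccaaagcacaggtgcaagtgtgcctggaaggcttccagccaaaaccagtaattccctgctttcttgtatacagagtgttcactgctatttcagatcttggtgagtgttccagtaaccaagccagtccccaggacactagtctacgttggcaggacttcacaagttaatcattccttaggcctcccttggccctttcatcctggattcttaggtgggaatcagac

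The abundant pump genes differed little between the ages. Setting the pseudogene aside, 18 of 22 pump genes had a young mean of at least 1000 normalised read counts, from 1658 for Atp6v1c2 to 19083 for Atp6ap1. Their log2 fold changes ran from −0.32 to 0.27 with a median of 0.07, 13 above and 5 below 0. The median was 0.13 with quantile normalisation, 0.14 with old replicate 3 left out, 0.13 with young replicate 1 left out and 0.04 with young replicate 3 left out. All 18 had a limma adjusted p of 0.163 or more, and their 95% intervals lay between −0.58 and 0.50, inside a 1.5-fold change either way. Over all genes, 45.6% had an interval that narrow. That share includes genes far below a mean of 1000 and was not matched to the 18 by level.

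Atp6v1a, the catalytic subunit A of V1, stood at 16898, 15873 and 16744 normalised read counts in young and at 18463, 16986 and 16984 in old replicates 1 to 3. Every old library lay above every young one, yet the difference was small, at 0.08 ± 0.09 on the log2 scale (SE, limma adjusted p = 0.666). Atp6v1b2, the common form of subunit B, had 3791, 4071 and 3833 in young and 4043, 3741 and 4362 in old libraries (0.05 ± 0.10, limma adjusted p = 0.805), and these ranges overlap. The subunit genes Atp6v1c1 and Atp6v1g1 had the largest positive differences among the abundant ones. Atp6v1c1, which encodes subunit C of the stalk, had 4631, 4015 and 4243 in young and 5335, 5062 and 4940 in old libraries, with no overlap (0.25 ± 0.09, limma adjusted p = 0.163). Atp6v1g1, the common form of stalk subunit G, differed by 0.27 ± 0.11 on the log2 scale (limma adjusted p = 0.188) and its groups overlapped. Atp6v1e1, a further stalk subunit, had old values above all young ones and 0.17 ± 0.09 (limma adjusted p = 0.35).

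Within V0, the a subunits anchor the pump and direct it to a membrane. Atp6v0a1 had 5320, 6147 and 5985 normalised read counts in young and 4530, 4140 and 5409 in old libraries, the most negative difference of the 18 (−0.32 ± 0.12, limma adjusted p = 0.167). Young replicate 1 lay below old replicate 3, so the groups overlapped. Atp6v0a2 was lower in every old than in every young library, at 7569 to 7913 against 8199 to 8680, with −0.11 ± 0.09 (limma adjusted p = 0.531). Per kilobase of exon, Atp6v0a2 supplied 41.8% ± 0.3 of the a subunit transcripts at 2 months and 42.1% ± 1.1 at 2.5 years (SD, n = 3). Atp6v0a1 supplied 29.7% ± 2.3 and 25.9% ± 3.0, and Tcirg1, the a3 form known from osteoclasts and lysosomes and outside the symbol rule, 28.3% ± 2.3 and 31.9% ± 3.1. Tcirg1 itself differed between the ages by a log2 value of 0.06 ± 0.11 (limma adjusted p = 0.811).

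The tissue-restricted subunits were rare. Atp6v0a4, the a4 form of acid-secreting cells of kidney and inner ear, had 46.2, 28.0 and 30.6 normalised read counts in young and 0.970, 11.3 and 0 in old replicates 1 to 3. The groups did not overlap, and 101 reads in young stood against 13 in old libraries, 7.88 times as many per unit of depth (95% interval from counting 4.41 to 15.3). A count of 0 allows up to 3 reads. The log2 fold change was −3.60 ± 0.85 in limma (SE, adjusted p = 0.0466), −3.03 in edgeR and −3.08 in DESeq2. In limma it was −4.64 without old replicate 2, where the call held (0.00235), and −2.83 to −3.74 without any of the other libraries, where it was lost (0.0824 to 0.15). It was also lost with edgeR (adjusted p = 0.0902), a pseudocount of 0.1 (0.101), a mean of at least 10 (0.0513) and no variance trend (0.133). Atp6v0a4 lies on chromosome 6 from 38048483 to 38124586, minus strand (GRCm38). It shares 259 exon bases with D630045J12Rik on the same strand and 62 with Tmem213 on the other. D630045J12Rik was lower in all old libraries too (446 ± 56.1 in young, 298 ± 46.0 in old mice, limma adjusted p = 0.0929). The part of shared reads was not tested.

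Atp6v1b1, the B1 form that pairs with a4 in such cells, had 4 reads in all young and 13 in all old libraries, at 1.05, 2.07 and 1.02 normalised read counts in young and 8.73, 3.78 and 0 in old replicates 1 to 3. Almost all transcripts of subunit B therefore came from Atp6v1b2, at 99.96% per kilobase in young mice. Atp6v1g3, the kidney form of subunit G, had 15.7, 24.9 and 15.3 in young and 10.7, 4.73 and 7.69 in old libraries. These did not overlap, and the log2 fold change was −1.20 ± 0.45 (limma adjusted p = 0.168). Atp6v1g2, the form of brain and nerve, had 123, 128 and 106 in young and 117, 213 and 258 in old replicates 1 to 3, with 0.65 ± 0.29 (limma adjusted p = 0.24). Old replicates 2 and 3, where it was high, are also those with the higher neuron marker sums given above. Not every marker of that list went this way, and Syt1 was lower in all old libraries. The part of neurons in the Atp6v1g2 values was not tested. Without old replicate 1 Atp6v1g2 was called (0.98 ± 0.22, limma adjusted p = 0.0426). With each library left out in turn, Atp6v1g2 had 0.41 to 0.98 (limma adjusted p up to 0.545). It shares 144 exon bases with Nfkbil1 on the opposite strand. Atp6v1c2, the epithelial form of subunit C, differed from these rare isoforms in level: it supplied 49.7% ± 3.2 of subunit C transcripts per kilobase in young and 46.3% ± 2.9 in old mice. Its values were 1859, 1703 and 1412 in young and 1871, 1846 and 1444 in old libraries, with 0.05 ± 0.14 (95% interval −0.27 to 0.38). For the d subunit, the excluded gene Atp6v0d2 took 0.0565% ± 0.0114 per kilobase in young and 6.24% ± 3.03 in old mice, and Atp6v0d1 the rest. Atp6v0d2 itself rose from 4.15 ± 1.09 normalised read counts in young to 512 ± 281 in old mice (SD, n = 3). Its log2 fold change was 6.51 ± 0.41 (SE, limma adjusted p = 0.000242).

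**Figure D2:**
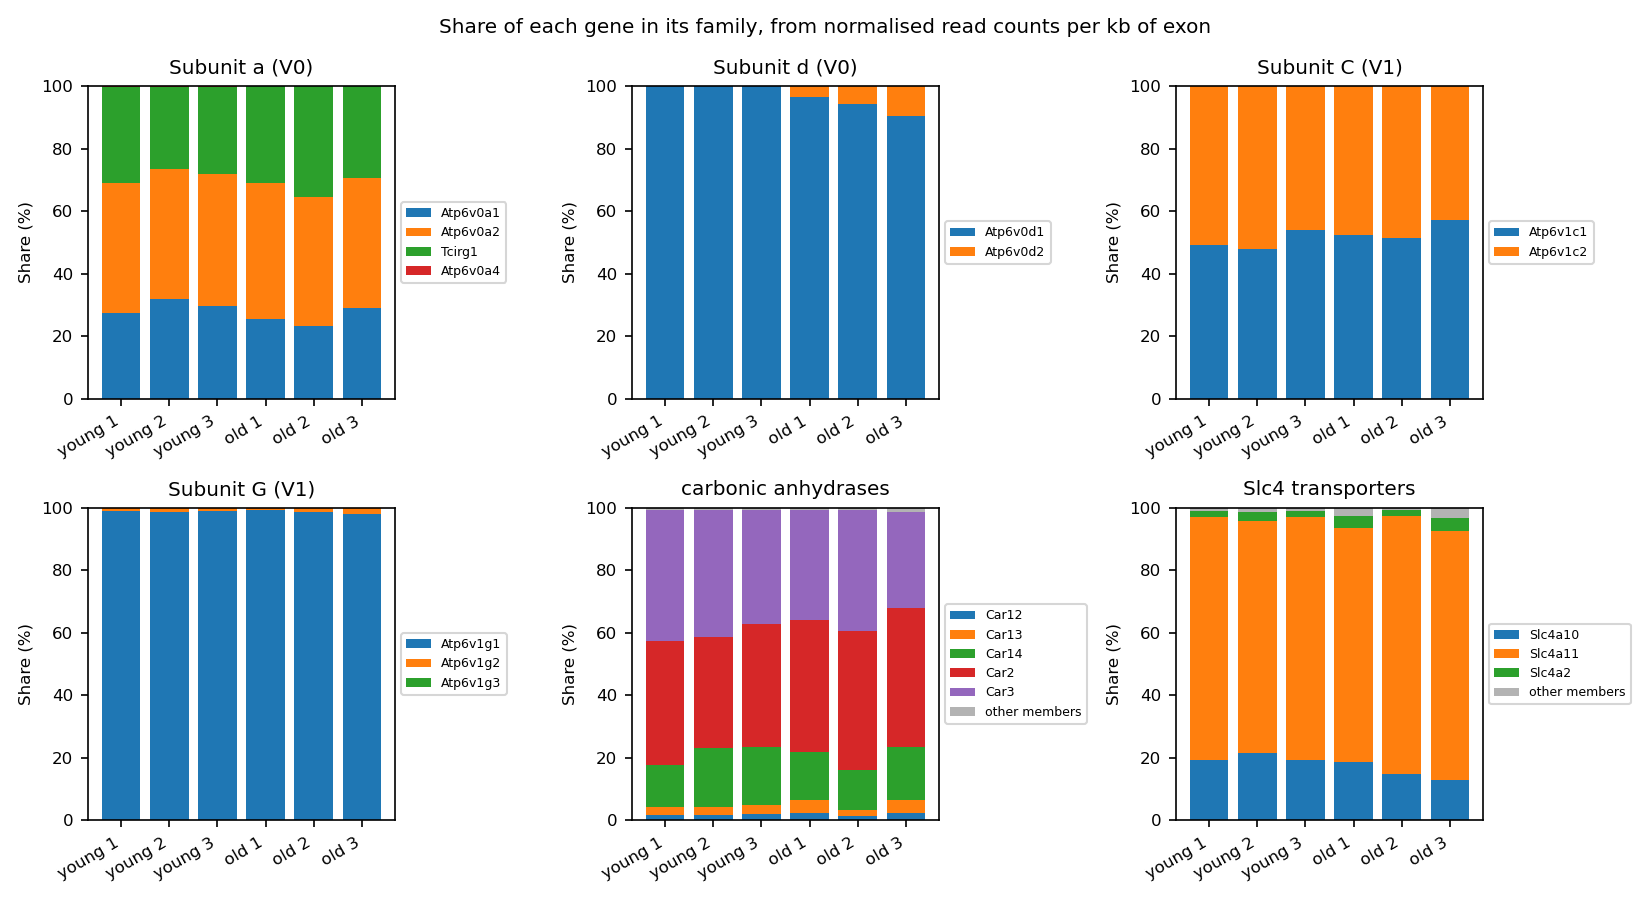
Share of each gene in its family in each library, in percent of normalised read counts per kilobase of exon. Atp6v0d2 is visible in the old libraries and not in the young, Atp6v0a2 holds 41.8% and 42.1% of subunit a at the 2 ages, and Car2, Car3 and Car14 with Slc4a11 and Slc4a10 make up most of their families.

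Among other genes of pump assembly and regulation, 0 of 15 tested were called by limma, edgeR or DESeq2 (1 each at an unadjusted p under 0.05 by limma and edgeR), against 5.25%, 5.07% and 10.6% of all genes. The median log2 fold change was 0.01. The smallest p belonged to Ncoa7, which encodes a V-ATPase binding protein (0.39 ± 0.13, limma adjusted p = 0.128), followed by Tm9sf4 (−0.16) and Dmxl2 (0.23). A list of 10 endosomal and lysosomal genes held the chloride carriers Clcn3 to Clcn7, Ostm1, Mcoln1 and the transcription factors Tfeb, Tfe3 and Mitf. Of these 10, limma and edgeR called 0 and DESeq2 called 1, Mitf. At an unadjusted p under 0.05 there were 2 each by limma and edgeR, against 21.3% and 21.7% of all genes. Mitf, a transcription factor of melanocytes and of lysosome genes, had 7136 ± 1504 in young and 10392 ± 1227 in old mice (0.56 ± 0.15, limma adjusted p = 0.0746, DESeq2 adjusted p = 0.0198). Tfe3, of the same factor family, had −0.35 ± 0.11 (limma adjusted p = 0.109), and Ostm1, the partner of the chloride carrier Clcn7, had 0.18 ± 0.10.

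The carbonic anhydrases were led by 3 genes. Per kilobase of exon, the cytosolic enzymes Car3 and Car2 supplied 39.7% ± 2.8 and 38.0% ± 2.5 of all 16 in young mice, and Car14, a transmembrane enzyme, 17.0% ± 3.2. In old mice these were 34.9% ± 4.0, 43.7% ± 1.4 and 15.03% ± 2.3. By young mean read count, Car3 ranked 21st and Car2 26th of 17091 genes. No carbonic anhydrase was called by limma or edgeR (6 of 16 at an unadjusted p under 0.05 with each, against 21.3% and 21.7% of all genes), and DESeq2 called 2, Car6 and Car8, against 10.6%. In 6 of the 16 the groups did not overlap, 3 higher and 3 lower, against 26.1% of all genes.

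Car2, the fast enzyme of many secreting epithelia and of red cells, had 105875, 79524 and 83756 normalised read counts in young and 87386, 122630 and 73101 in old replicates 1 to 3. The old libraries enclosed the young range, and the log2 fold change was 0.05 ± 0.20 (95% interval −0.39 to 0.49). Car3, a slow enzyme best known from muscle, liver and fat, had 132152, 108790 and 92912 in young and 86447, 126038 and 59824 in old libraries (−0.35 ± 0.26, 95% interval −0.93 to 0.24). For both genes old replicate 2 was the highest and old replicate 3 the lowest old library. The summed level of 11 skeletal muscle markers was 378 to 585 in young and 141 to 235 in old libraries, and their median log2 fold change was −1.78. Much of that sum was 1 gene, Casq1, at 257 ± 124 in young and 84.3 ± 16.5 in old mice. Mylpf was level (46.2 and 47.3) and Myl1 went the other way (1.03 and 12.1). The part of muscle in the Car3 values was not tested. Car13, another cytosolic enzyme, had 6832, 5757 and 6055 in young and 8009, 5551 and 6154 in old libraries (0.07 ± 0.14, 95% interval −0.25 to 0.38). Car13, Car1, Car3 and Car2 lie in that order on chromosome 3 (GRCm38), between 14641727 and 14900770.

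Car1, the abundant enzyme of red cells, had 97.6, 101 and 73.5 normalised read counts in young and 102, 95.5 and 247 in old replicates 1 to 3. Old replicate 3, the library with the highest erythroid sum, stood far above the young range, while old replicate 1 lay just above its upper end and old replicate 2 within it (0.57 ± 0.36, limma adjusted p = 0.411). The part of red cells in this value was not tested.

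Car14 was lower in every old than in every young library, at 37263, 44956 and 42152 in young and 33635, 36137 and 29572 in old replicates 1 to 3. The log2 fold change was −0.32 ± 0.12, which did not pass (limma adjusted p = 0.158). It shares 445 exon bases with Aph1a on the opposite strand, and no source used here states whether counting used strand. Car12, also a transmembrane enzyme with its active site outside the cell, had 13486, 12023 and 12987 in young and 15527, 11505 and 12633 in old libraries (0.03 ± 0.12, 95% interval −0.25 to 0.31).

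The remaining membrane-bound and secreted enzymes were scarce, and those described next were picked after their values were seen, for an unadjusted p under 0.05. Car6, the secreted enzyme of saliva, had 26.2, 16.6 and 8.17 in young and 65.0, 37.8 and 47.1 in old libraries, with no overlap (1.60 ± 0.45, limma adjusted p = 0.0771, DESeq2 adjusted p = 0.0359). Car4, anchored to the outer membrane of capillary endothelium and some epithelia, had 24.1 to 36.3 in young and 42.7 to 76.6 in old libraries (0.94 ± 0.34, limma adjusted p = 0.152). Car15, anchored in the same way, went the other way, from 100.1 to 112 in young to 64.4 to 73.7 in old libraries (−0.60 ± 0.22, limma adjusted p = 0.156). Car15 shares 1253 exon bases with the overlapping model Gm20518.

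Proteins encoded by Car8, Car10 and Car11 have the fold of a carbonic anhydrase and no enzyme activity. Car8, known from Purkinje cells as a binding partner of an IP3 receptor, had 299, 272 and 273 in young and 397, 347 and 520 in old libraries, with no overlap (0.56 ± 0.18, limma adjusted p = 0.112, DESeq2 adjusted p = 0.0386). Car10 was lower in all old libraries, at 13.6 to 19.9 against 32.5 to 41.9 (−1.09 ± 0.33, limma adjusted p = 0.097), and was called with quantile normalisation alone (−1.34, limma adjusted p = 0.05). Car11 had 718 to 843 in young and 508 to 731 in old libraries, which overlap. The mitochondrial enzymes Car5a and Car5b had 10.5 to 12.3 and 357 to 414 in young and 2.91 to 24.0 and 284 to 399 in old libraries. Car7 and Car9 had young means of 121 and 16.9 and old means of 132 and 16.9.

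**Figure D3:**
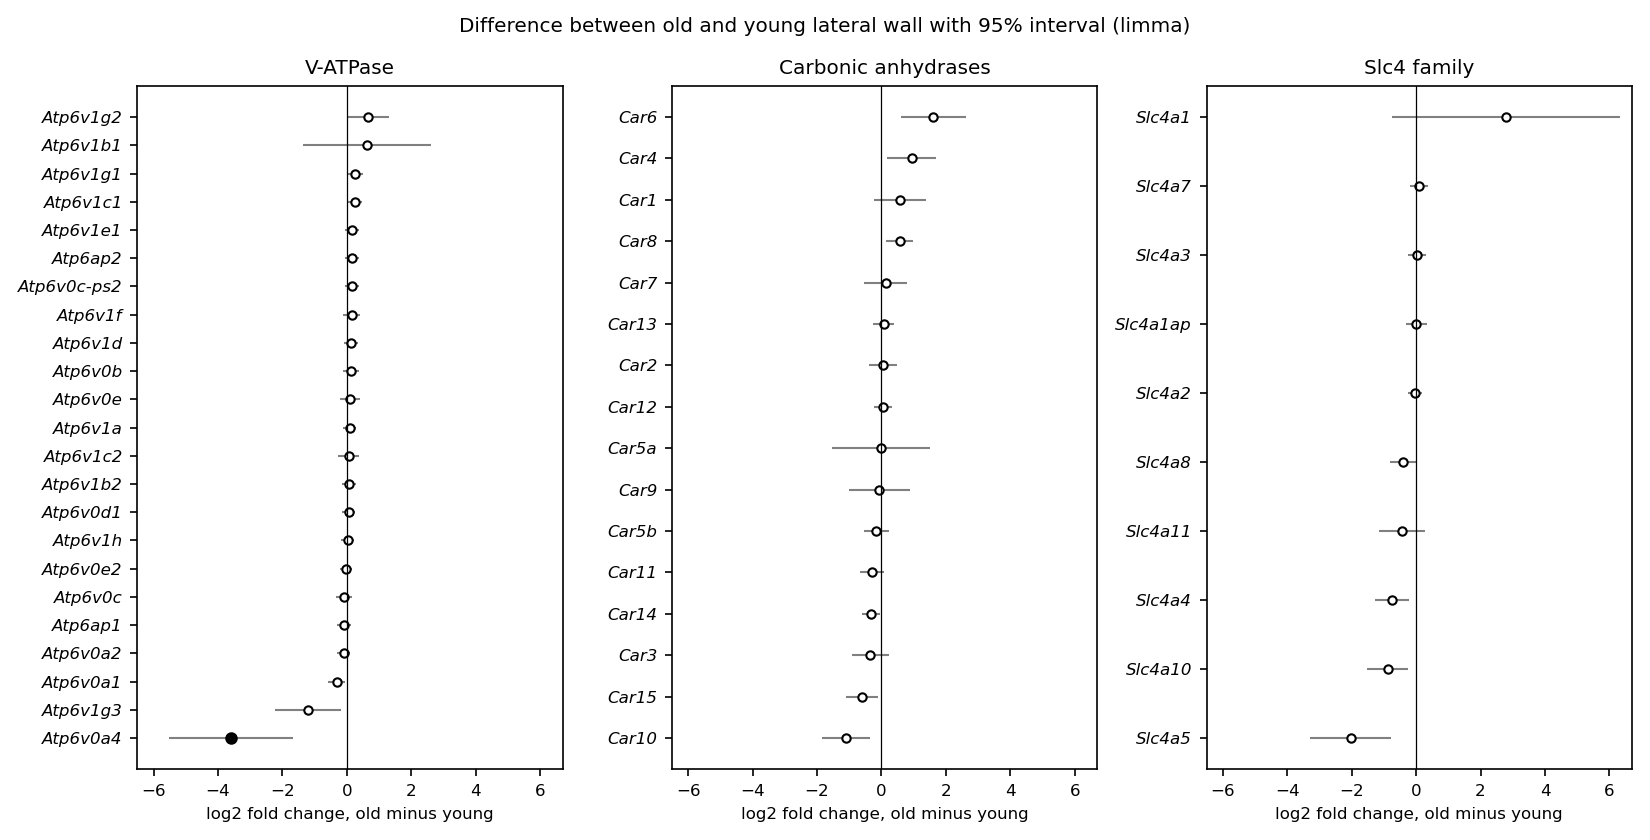
Log2 fold change, old minus young, of each gene with its 95% interval from limma (n = 3 each), where the filled symbol marks an adjusted p under 0.05. Most pump genes cluster at 0 with narrow intervals, Atp6v0a4 stands apart at −3.60, and Slc4a1 has the widest interval.

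In the Slc4 family, Slc4a11 and Slc4a10 together made up nearly all transcripts of the 9 transporters, at 76.4% ± 2.1 and 20.1% ± 1.3 per kilobase in young mice and 79.0% ± 3.8 and 15.4% ± 2.9 in old mice. None of the 10 genes was called by limma or edgeR (4 at an unadjusted p under 0.05 with each, against 21.3% and 21.7% of all genes), and DESeq2 called 3, Slc4a1, Slc4a10 and Slc4a4, against 10.6%. In 3 of the 10 the groups did not overlap, all lower in old mice, which is near the 26.1% of all genes. The 5 sodium-coupled bicarbonate transporters had a median log2 fold change of −0.75. Of these 5, 4 (Slc4a4, Slc4a5, Slc4a8 and Slc4a10) had an unadjusted limma p under 0.05, and 3 an unadjusted edgeR p under 0.05.

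Slc4a10, a sodium-coupled bicarbonate importer best known from neurons and choroid plexus, was the most abundant of these 5. It had 41085, 32338 and 39200 normalised read counts in young and 19649, 31336 and 13516 in old replicates 1 to 3. Old replicate 2 lay just under the lowest young library and the other old libraries far under it. The log2 fold change was −0.88 ± 0.27 (limma adjusted p = 0.116, DESeq2 adjusted p = 0.0203), and −1.20 ± 0.17 without old replicate 2, where limma called it (0.00605). With each library left out in turn it ran from −1.20 to −0.59, with a limma adjusted p of up to 0.32. Slc4a11 carries protons or hydroxide rather than bicarbonate, is expressed in spiral ligament fibrocytes, and its loss in humans causes corneal dystrophy with hearing loss. It had 127470, 86238 and 122398 in young and 61605, 135732 and 65337 in old libraries. Old replicate 2 was the highest of all 6 libraries, and old replicates 1 and 3 were the lowest. The log2 fold change was −0.43 ± 0.31 (95% interval −1.14 to 0.28), and −0.80 ± 0.17 without old replicate 2 (limma adjusted p = 0.0265). Over all libraries left out in turn it ran from −0.80 to −0.23 (limma adjusted p up to 0.754). The libraries low in both genes, old replicates 1 and 3, are those with the high erythroid sums given above, and the summed level of 10 neutrophil markers was 5793, 963 and 11189 in old replicates 1 to 3 against 399 to 577 in young libraries. Markers of the lateral wall did not all follow 1 pattern over the old libraries. Coch, an abundant protein of spiral ligament fibrocytes, was highest of the old libraries in replicate 2, like both transporters, at 437868, 728041 and 322028 in old replicates 1 to 3, and so were Pou3f4 (4830, 7435 and 3689) and Gjb2 (46842, 61246 and 38314). The potassium channel gene Kcnj10 of the stria was lowest there, at 42775, 31115 and 60296. The 14 lateral wall markers lay on average 0.33, 0.33 and 0.40 log2 units below the young mean in old replicates 1, 2 and 3. The part of tissue make-up in either gene was not tested.

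**Figure D4:**
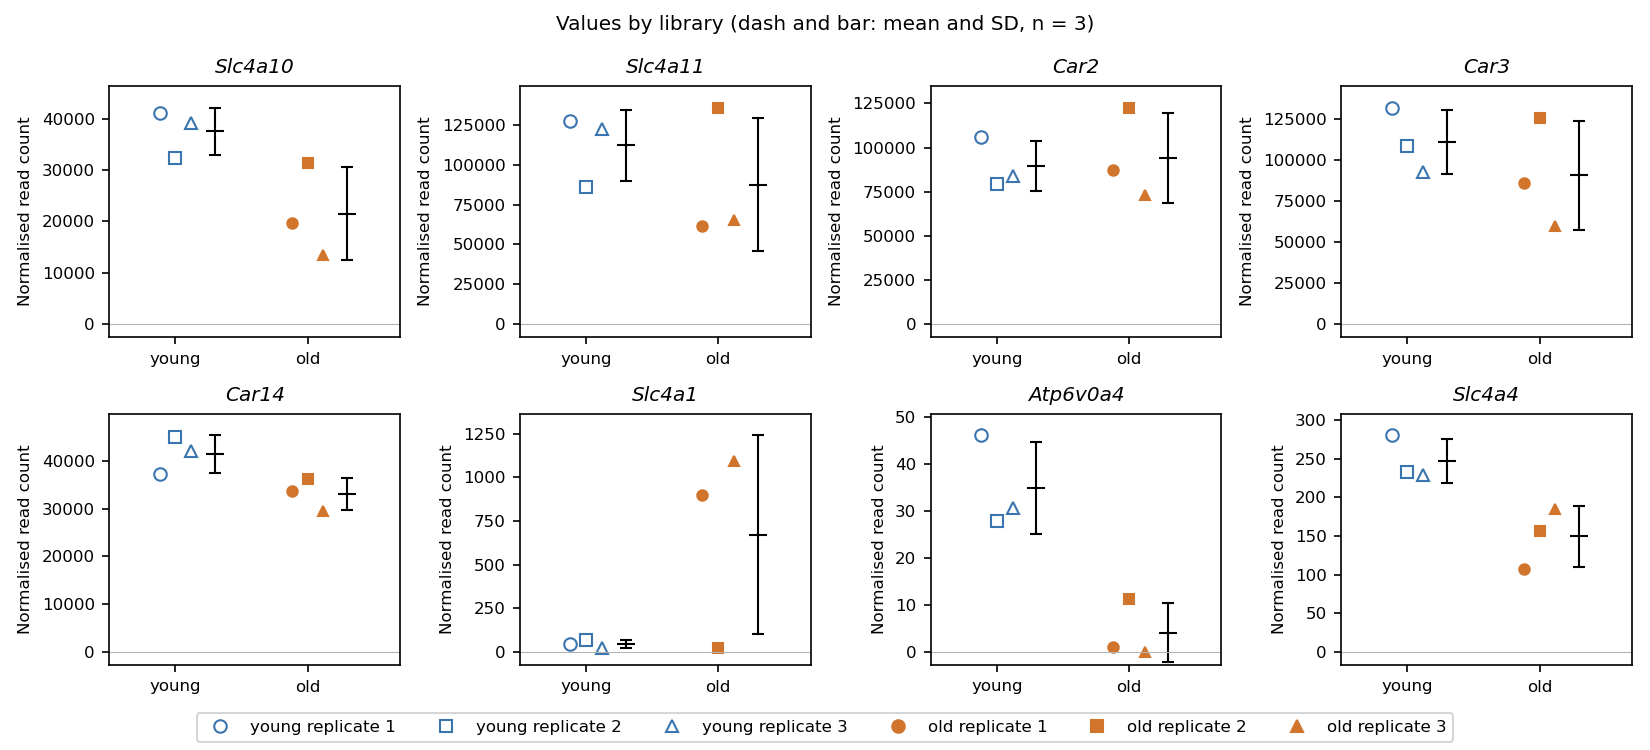
Normalised read counts of 8 genes by library, with young libraries as open blue and old libraries as filled orange symbols, and the mean and SD of each group (n = 3) as a dash and bar. Old replicate 2 is the highest old library for Slc4a10, Slc4a11, Car2 and Car3 and the lowest for Slc4a1, and all old libraries lie below all young ones for Slc4a10, Car14, Atp6v0a4 and Slc4a4.

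Slc4a4, the electrogenic sodium bicarbonate cotransporter, had 280, 232 and 229 in young and 107, 156 and 185 in old libraries. The groups did not overlap, with −0.75 ± 0.23 (limma adjusted p = 0.103, DESeq2 adjusted p = 0.0424). Slc4a5, its nearest relative in transport mode, was scarce, with 24 reads in all young and 4 in all old libraries, 6.09 times as many per unit of depth (95% interval from counting 2.09 to 24.1). Its limma adjusted p was 0.0719, and 0.0315 with no variance trend. Slc4a8, which exchanges sodium and bicarbonate for chloride, had 1272, 1656 and 1639 in young and 1167, 894 and 1401 in old libraries, which overlap (−0.41 ± 0.18, limma adjusted p = 0.222). Slc4a7, an electroneutral sodium bicarbonate cotransporter whose loss deafens mice, had 739, 710 and 852 in young and 772, 797 and 884 in old libraries (0.09 ± 0.13, 95% interval −0.19 to 0.38).

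Of the chloride-bicarbonate exchangers, Slc4a2, the common form, had 5156, 5628 and 5160 in young and 5008, 5099 and 5495 in old libraries (−0.03 ± 0.09, 95% interval −0.24 to 0.17). It shares 1242 exon bases with models on the opposite strand, Fastk among them. Slc4a3, the form of heart and nerve, had young and old means of 1201 ± 32.4 and 1236 ± 151. Slc4a1, the band 3 protein of red cells, had 45.1, 68.5 and 20.4 in young and 897, 22.7 and 1091 in old replicates 1 to 3. Old replicates 1 and 3 stood far above the young range and old replicate 2 within it, so the groups overlapped (2.80 ± 1.47, limma adjusted p = 0.336). Without old replicate 2 the log2 fold change was 4.60 ± 0.46 (limma adjusted p = 0.00214). Leaving out each library in turn gave 1.83 to 4.60 (limma adjusted p up to 0.655). All 14 erythroid markers were above every young library in old replicates 1 and 3, and 6 of the 14 were in old replicate 2, where Epb42 and Trim10 had 0 reads. The part of red cells in the Slc4a1 values was not tested. Slc4a1ap, which the rule took by its symbol, encodes a nuclear adaptor protein and no transporter, and its means were 693 ± 104 and 697 ± 75.6.

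Of 26 other genes of acid and bicarbonate transport, 2 rose and 0 fell (limma adjusted p under 0.05, against 2.71% and 2.55% of all genes). Cftr, a chloride channel that also conducts bicarbonate, had 12.6, 13.5 and 7.15 in young and 50.4, 60.5 and 30.7 in old libraries (log2 fold change 1.99 ± 0.41, limma adjusted p = 0.0273). Slc26a10 had 31.5, 30.1 and 43.9 in young and 71.7, 113 and 212 in old libraries (1.76 ± 0.39, limma adjusted p = 0.035). With 1 library left out, the call of Cftr held only without old replicate 3 (adjusted p up to 0.113) while its log2 fold change stayed at 1.73 to 2.26. That of Slc26a10 held only without old replicates 1 or 2 (up to 0.126), at 1.36 to 2.13. Hvcn1, a voltage-gated proton channel of immune cells, had 1092 ± 282 in young and 1767 ± 239 in old mice (0.72 ± 0.18, limma adjusted p = 0.0565, DESeq2 adjusted p = 0.0081). The summed level of 14 macrophage markers, 10 of which rose in limma, was 37092 to 40231 in young and 66732 to 102453 in old libraries. Much of that sum was 1 gene, Gpnmb, at 29601 ± 1622 in young and 50077 ± 13208 in old mice. The markers not called were Fcgr1 (log2 fold change 1.13), Aif1 (0.99), Csf1r (0.14) and Mrc1 (−0.29). The part of macrophages in the Hvcn1 values was not tested. Slc26a4, which encodes the bicarbonate exporter pendrin, had 25386, 23437 and 28588 in young and 28937, 17001 and 11559 in old libraries. Old replicate 1 was the highest of all 6, and the log2 fold change was −0.53 ± 0.30 (limma adjusted p = 0.363), or −0.88 without old replicate 1 (0.0297). Over all libraries left out in turn it ran from −0.88 to −0.21 (limma adjusted p up to 0.67).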

How the data were processed

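Lateral wall RNA of 3 young and 3 old mice was sequenced, and the authors deposited 1 table of 17091 genes with a signal value per library, their p-value, a fold change as a signed score, and an adjusted p. The submitters' processing notes name TopHat2, Partek, DESeq2 and mm10, without versions or roles, and no source used here gives the annotation or the strand setting. The deposited signal is a read count divided by a library factor: per library, at least 99.8771% of values were whole multiples of a common step (within 0.1), which gave back the reads. It is called normalised read count here.

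Differences were tested with limma 3.58.1 in R 4.3.3 on log2(value + 1) with variance trend and robust moderation, adjusted by Benjamini-Hochberg over all genes with a mean of at least 1. A log2 fold change is therefore on the log2(value + 1) scale, and for low genes it depends on the pseudocount and can differ in either direction from that of a count model. The design had assumed such values. As alternatives, edgeR 4.0.16 (quasi-likelihood, TMM) and DESeq2 1.42.0 were run on the recovered reads, with other pseudocounts (0.1 and 10), a mean of at least 10 or no filter, quantile normalisation, no trend, a replicate block, an adjusted p under 0.01, and each library left out. The limma, edgeR and DESeq2 fits were also run on simulated counts, each drawn independently. That run cannot show how the fits behave where many genes shift together in a library. Lengths and overlaps come from GENCODE M21 (49 of 49 genes matched). Intervals of read ratios are exact, at 95%, and cover counting error only. Each library is 1 mouse.

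The gene set and the lists were chosen with earlier results of these data known. Values in every library were given for genes past the threshold and for set tissue-restricted subunits, their common partners and the main anhydrases and transporters. Further genes were added after their values were seen, because their groups did not overlap or their unadjusted p was under 0.05.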

Additional observations from a re-analysis of the deposited data

How the results depend on the processing

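Over all genes the limma count of 898 became 307 without a variance trend, 1819 with DESeq2, 210 at an adjusted p under 0.01 and 230 to 1136 when 1 library was left out. Of the 49 genes, 1 was called, against 0 with a pseudocount of 0.1, a mean of at least 10, edgeR or an adjusted p under 0.01, 2 with quantile normalisation, 6 with DESeq2 and 0 to 4 when 1 library was left out. The cause was not tested. For the 43 genes followed, 630 of 686 values under an alternative kept direction and side of the threshold, 25 lost the call, 17 gained it and 14 changed sign. The sign changes were in 8 genes, 7 of them within 0.07 of 0 and Atp6v1b1 at 0.62. Slc4a2 was 0.0206 with quantile normalisation and ranged from −0.0716 to 0.0106 with 1 library left out. The other ranges with 1 library left out were −0.0946 to 1.55 for Atp6v1b1, −0.0028 to 0.11 for Atp6v1b2, −0.0585 to 0.17 for Atp6v1c2, −0.0884 to 0.13 for Car12, −0.0848 to 0.18 for Car13, −0.16 to 0.22 for Car2 and −0.0126 to 0.12 for Tcirg1. With the replicate block, 406 genes and 0 of the 49 were called. Same-numbered libraries did not deviate together (correlations −0.244, −0.096 and −0.088, against −0.146 to 0.235 for the other pairs). With n = 3 per group such correlations cannot exclude a pairing by number. The main fit used no block. Depth limits Atp6v0a4, Atp6v1b1 and Slc4a5, each with 13 or fewer reads in 1 age group.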
